A study of Homo sapiens with 6 samples.

Results

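The distal E-box peaks without an AP-1 motif were the Myc peaks of MDA-MB-231 cells whose summit lay more than 3 kb from every annotated transcription start site (TSS), with the E-box CACGTG and without TGACTCA or TGAGTCA within 50 bp of the summit. They made up 210 of 3720 peaks in parental replicate 1, 316 of 5719 in parental replicate 2, 887 of 27213 in TKO replicate 1 and 661 of 25876 in TKO replicate 2, or 2074 peaks in all. Their choice used position and sequence and no measure of peak strength. Once the 4 lists were merged where peaks overlapped by at least 1 bp, 1002 of 33425 sites were distal E-box sites, meaning that the strongest peak of the site fulfilled the rule. A further 260 sites held such a peak but had a stronger peak that did not fulfil it. In 230 of these the stronger peak was distal with no E-box in its window, in 29 it had an AP-1 motif, and in 1 it was within 3 kb of a TSS.

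Myc was immunoprecipitated from parental 231 cells, a human triple-negative breast cancer line, and from 231:TKO cells, the same line after deletion of TXNIP, with 2 replicates of each genotype and 1 input library for each. The TKO cells were established from single-cell clones, so the genotype was examined in 1 cell line and a difference between genotypes cannot be told apart from a difference between clones. Peak lists of Myc cannot show the loss of TXNIP, so the knockout was not checked here. The number of reads per library, in megareads (M), estimated from the background levels in the peak lists with an assumed mappable genome, was 26.4 and 22.2 M for the parental libraries and 19.9 and 13.0 M for the TKO libraries, so the longer lists came from the libraries with fewer reads. The fragment length of the peak caller was taken as the width of the narrowest peak of each list. It was 140 and 151 bp for the parental libraries and 182 and 201 bp for the TKO libraries, and it entered the read estimates.

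Myc binds DNA as a dimer with Max through a basic helix-loop-helix leucine zipper, and CACGTG is the sequence the dimer prefers. Several other factors of this class, such as USF, TFE3 and the MondoA and ChREBP proteins, bind the same 6 bases, and the bases beside the E-box differ in how well they suit each factor. TXNIP is an arrestin-like protein that restrains glucose uptake, and its gene is a known target of MondoA. AP-1, a dimer of Fos and Jun proteins, binds TGACTCA and is a frequent occupant of distal enhancers in mesenchymal breast cancer cells, so leaving out its motif sets E-box sites apart from AP-1 enhancers by sequence.

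The windows of 101 bases around the summits of the highest-ranking sites show where the E-box lay. They are given on the plus strand of hg19 with the E-box in capitals, named by the nearest protein-coding TSS, which is a label and not a statement of regulation. The first set are the strongest sites with a peak in all 4 libraries.
LPIN1 (chr2:11919409-11919509): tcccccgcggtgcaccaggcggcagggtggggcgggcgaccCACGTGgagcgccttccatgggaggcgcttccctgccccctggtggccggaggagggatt
SYT5 (chr19:55700881-55700981): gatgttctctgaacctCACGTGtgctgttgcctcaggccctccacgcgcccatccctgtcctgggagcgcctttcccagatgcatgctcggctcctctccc
ATF7IP (chr12:14413544-14413644): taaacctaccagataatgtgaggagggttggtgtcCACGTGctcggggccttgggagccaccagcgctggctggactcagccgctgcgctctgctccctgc
FOXN3 (chr14:90168164-90168264): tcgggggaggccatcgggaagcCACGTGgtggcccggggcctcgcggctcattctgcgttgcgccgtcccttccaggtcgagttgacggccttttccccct
MERTK (chr2:112732759-112732859): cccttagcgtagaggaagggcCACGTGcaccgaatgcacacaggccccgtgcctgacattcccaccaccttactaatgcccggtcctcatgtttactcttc
In the LPIN1 window the E-box centre was 6.5 bp from the summit, and in the SYT5 window it was 31.5 bp away. The next set are the strongest TKO-only sites, called in both TKO lists and absent from both parental lists.
EPHB4 (chr7:100435075-100435175): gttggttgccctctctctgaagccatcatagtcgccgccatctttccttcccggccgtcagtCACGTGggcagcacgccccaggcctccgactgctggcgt
EGFL7 (chr9:139538954-139539054): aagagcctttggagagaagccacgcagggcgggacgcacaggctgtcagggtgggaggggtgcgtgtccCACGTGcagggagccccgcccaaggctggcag
METRNL (chr17:81153392-81153492): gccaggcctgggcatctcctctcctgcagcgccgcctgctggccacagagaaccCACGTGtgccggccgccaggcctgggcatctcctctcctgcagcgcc
GNG7 (chr19:2599099-2599199): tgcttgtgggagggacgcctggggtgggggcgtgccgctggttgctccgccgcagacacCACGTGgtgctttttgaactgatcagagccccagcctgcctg
MICALL2 (chr7:1513800-1513900): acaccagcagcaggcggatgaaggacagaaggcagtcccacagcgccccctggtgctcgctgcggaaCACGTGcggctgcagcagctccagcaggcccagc
The METRNL window holds a direct repeat of 33 bases. The last set are the 3 parental-only sites, called in both parental lists and in no TKO list.
TBX19 (chr1:168348460-168348560): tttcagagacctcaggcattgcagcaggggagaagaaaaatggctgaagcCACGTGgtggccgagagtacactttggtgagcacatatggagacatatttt
ILRUN (chr6:34597887-34597987): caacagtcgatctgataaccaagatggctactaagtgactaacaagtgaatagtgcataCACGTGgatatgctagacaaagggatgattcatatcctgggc
ACVR2A (chr2:147410030-147410130): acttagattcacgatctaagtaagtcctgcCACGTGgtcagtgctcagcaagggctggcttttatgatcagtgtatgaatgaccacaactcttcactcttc
All 3 of these windows had a GC content under 50 percent, at 48.5, 42.6 and 45.5 percent, whereas the 10 windows of the other sets lay between 57.4 and 75.2 percent. Those 10 windows were picked for their strength. Median GC content within 100 bp of the summit was 56.2 percent over all distal E-box sites called in every library. It was also 56.2 percent over all TKO-only sites.

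The TKO lists held more distal E-box peaks than the parental lists, with 774 ± 160 against 263 ± 74.95 (SD, n = 2 each), a ratio of 2.94. Every TKO list was above both parental lists, with p = 0.333 in an exact two-sided permutation test, which can go no lower with 2 libraries a group. Other distal peaks numbered 9347.5 ± 573 against 1462.5 ± 951, a ratio of 6.39 with the same exact permutation p = 0.333. The ratio was 4.04 for distal peaks with an AP-1 motif alone, 7.23 for distal peaks with neither motif, and 2.17 for E-box peaks within 3 kb of a TSS. As a share of distal peaks, the distal E-box peaks took 21.0% in parental replicate 1 (95% Clopper-Pearson interval 18.5 to 23.7), 12.9% in parental replicate 2 (11.6 to 14.3), 8.34% in TKO replicate 1 (7.82 to 8.88) and 6.88% in TKO replicate 2 (6.39 to 7.41). The TKO minus parental difference was -9.34 percentage points (exact permutation p = 0.333), and both TKO shares were below both parental shares. These intervals, like the others given for shares of peaks or sites, cover counting error only.

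Both differences turned with the length of the lists. When every list was shortened to its 3720 peaks of highest fold enrichment, the distal E-box peaks numbered 210, 236, 203 and 154 in the parental and TKO replicates, a TKO to parental ratio of 0.80, and the share of distal peaks was higher in the TKO libraries by 4.75 percentage points (exact permutation p = 0.667). Among the 1000 distal peaks of highest fold in each list, 21.0%, 18.7%, 24.7% and 19.6% were distal E-box peaks. Parental replicate 1 lay between the TKO replicates on this measure. Among the strongest 100 distal peaks the numbers were 34, 28, 42 and 30.

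**Figure D1:**
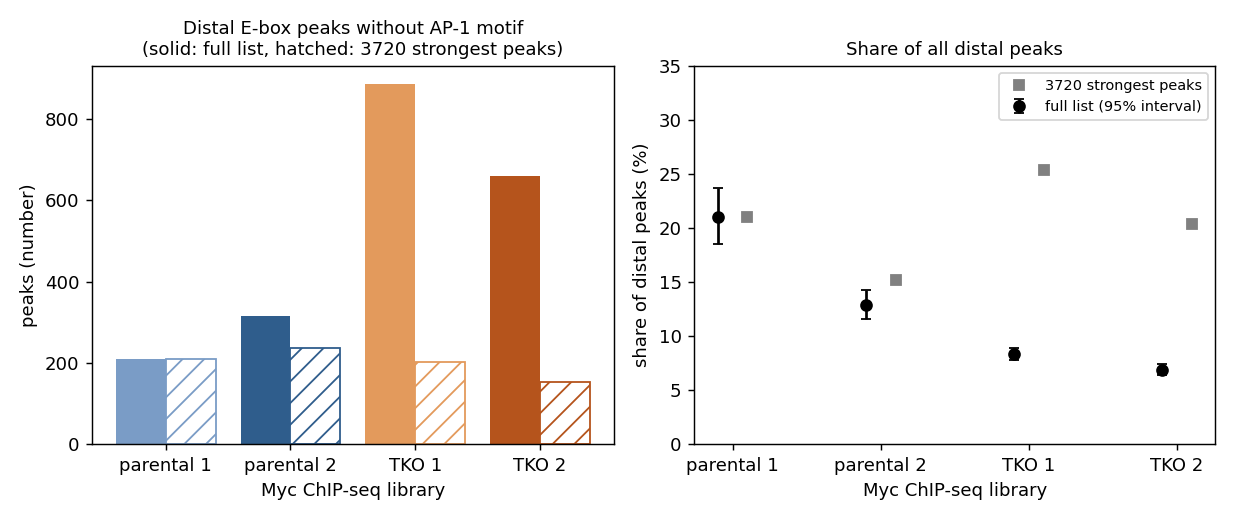
Number of distal E-box peaks without an AP-1 motif (left, solid for the full list and hatched for the 3720 peaks of highest fold) and their share of distal peaks in percent (right) for each Myc library. Circles are full lists with 95% Clopper-Pearson intervals and squares the shortened lists; the TKO libraries were higher in number only with the full lists, and the full-list share ranged from 21.0% in parental replicate 1 to 6.88% in TKO replicate 2.

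Within each list the distal E-box peaks were stronger than other distal peaks. Peak strength is given as the percentile of the fold enrichment of the summit over the local background, within the whole list. The median percentile was 54.3, 65.8, 66.0 and 64.7 in parental replicates 1 and 2 and TKO replicates 1 and 2, against 38.99, 44.5, 40.2 and 39.5 for other distal peaks. The difference of 21.9 ± 4.83 percentile points (SD, n = 4) had the same direction in 4 of 4 libraries, and the exact two-sided sign-flip permutation test gave p = 0.125, the smallest that 4 libraries allow. The median fold itself was 5.68, 5.92, 6.36 and 6.46, against 5.05, 4.99, 4.97 and 5.19. Higher percentiles were not particular to these peaks. Distal peaks with both an E-box and an AP-1 motif had medians of 54.2, 58.7, 68.8 and 61.3, and E-box peaks within 3 kb of a TSS had 65.9, 68.7, 80.4 and 80.1, above the distal E-box peaks in 4 of 4 libraries. The highest fold of a distal E-box peak was 15.8, 21.7, 29.5 and 28.6.

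The strongest decile of each list held 6.19%, 12.7%, 17.9% and 17.9% of the distal E-box peaks, against 2.28%, 5.57%, 3.84% and 4.07% of other distal peaks. The mean difference was 9.71 ± 5.04 percentage points (SD, n = 4; exact sign-flip permutation p = 0.125), again in 4 of 4 libraries. Read by strength, the share of distal peaks with an E-box and no AP-1 motif was 22.3% in the weakest decile and 41.9% in the strongest decile of parental replicate 1. In TKO replicate 1 it went from 3.09% to 29.8%, and in TKO replicate 2 from 3.31% to 24.5%. Parental replicate 2 went from 5.67% to 25.2%. The share was thus higher in the strongest than in the weakest decile of all 4 lists.

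**Figure D2:**
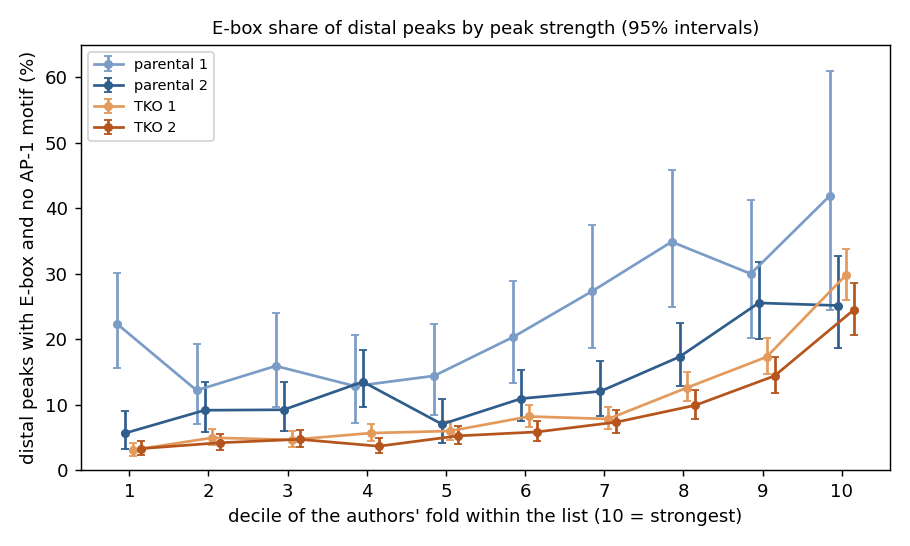
Share of distal peaks, in percent, with an E-box and no AP-1 motif within 50 bp of the summit, by deciles of the fold enrichment in each list (10 is the strongest); points are libraries and bars 95% Clopper-Pearson intervals. The share was highest in the strongest or the next decile of every list, with 41.9% in parental replicate 1, 29.8% in TKO replicate 1 and 24.5% in TKO replicate 2 in the strongest decile.

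Peaks of this kind were also somewhat wider, with medians of 208.5, 217.5, 353 and 363 bp against 193.5, 203, 287 and 296 bp for other distal peaks, a mean log2 ratio of 0.20 ± 0.11 (SD, n = 4; exact sign-flip permutation p = 0.125). Widths of the TKO lists exceeded those of the parental lists in both kinds of peak, as did the fragment lengths given above. GC content within 100 bp of the summit differed little, at 54.7%, 53.2%, 54.7% and 56.7% against 54.2%, 52.2%, 54.2% and 56.7% (exact sign-flip permutation p = 0.25).

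The rule placed an E-box somewhere in the window but did not say where. The E-box centre nearest the summit lay at a median of 18, 19, 19.5 and 20.5 bp from it, and 52.4%, 52.5%, 50.4% and 49.9% of the peaks had it within 20 bp. Of the positions an E-box can take in the window, 41.7% lie that close. The TKO minus parental difference was -2.30 percentage points (exact permutation p = 0.333), and it was 3.03 points when summits had to be over 10 kb from a TSS. Windows placed 1 kb to either side of the summits held an E-box in 1.43%, 0.949%, 1.24% and 1.21% of cases. The summit windows of these peaks hold one by the rule, so the contrast between them was fixed in advance. Over all distal peaks, summit windows held an E-box in 23.3%, 14.8%, 9.25% and 7.81% of cases. Their windows 1 kb away held one in 1.25%, 1.33%, 1.36% and 1.53%. More than 1 E-box was present in 5, 15, 32 and 30 of the summit windows of the distal E-box peaks.

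**Figure D3:**
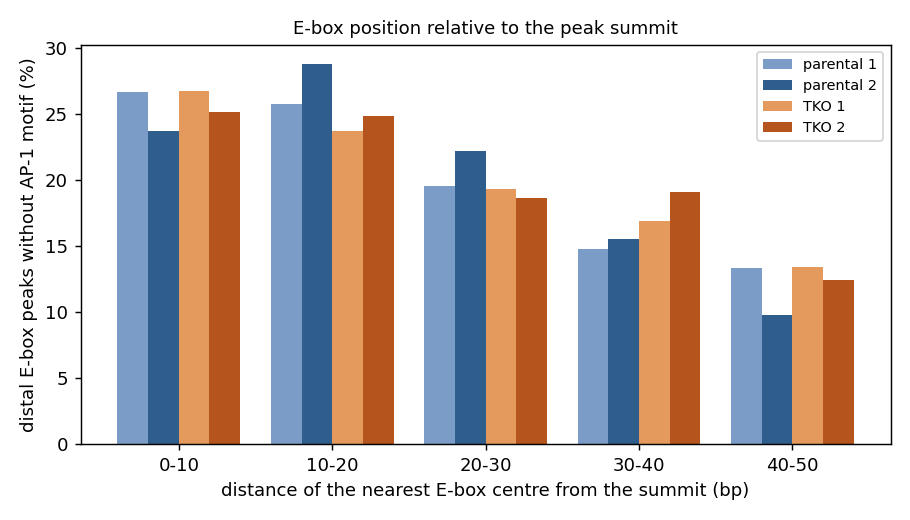
Distance in bp from the peak summit to the centre of the nearest E-box, in bins of 10 bp, as the percent of distal E-box peaks without an AP-1 motif in each Myc library. Bars are single libraries; between 49.9% and 52.5% of the peaks fell in the bins up to 20 bp.

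Across the genome, 231143 CACGTG sequences lay more than 3 kb from a TSS, and 345, 573, 2003 and 1685 of them fell inside a peak of the respective list, or 0.149%, 0.248%, 0.867% and 0.729%. The great majority of distal E-boxes were therefore outside any called peak in each library. The base on each side of the E-box was not part of the rule. Of 1290 distinct E-boxes nearest to the summit of a distal E-box peak, 241 were CCACGTGG and 280 were CCACGTGC, when both strands are read as 1 sequence. These made up 18.7% and 21.7% of the E-boxes at these summits, against 8.93% and 10.6% of all distal E-boxes in the genome. The shares were not particular to distal peaks, with 17.0% and 22.6% at E-box peaks within 3 kb of a TSS. Per 1000 distal E-boxes of the same flank, 11.7 and 11.4 were at the summits of distal E-box peaks. The overall figure was 5.58 per 1000, which leaves out E-boxes elsewhere in peaks. ACACGTGG was near it with 6.30. At the other end, TCACGTGA gave 16 E-boxes, or 1.25 per 1000. It was the nearest E-box of 0 peaks in both parental lists and of 9 and 8 peaks in the TKO lists. The palindrome ACACGTGT gave 3.19 per 1000, also under the overall figure.

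By flank, CCACGTGG was found at 23.3%, 24.7%, 19.2% and 19.7% of the peaks in the 4 lists and CCACGTGC at 32.4%, 26.3%, 23.4% and 21.9%. Among sites, CCACGTGG took 20.8% of those with a peak in all 4 libraries and 19.6% of those in both TKO libraries alone, a difference of 1.23 percentage points (95% interval by the normal approximation -6.17 to 8.62). CCACGTGC took 34.5% (27.4 to 42.2) and 17.9% (14.1 to 22.3) of the same sites, a difference of 16.6 points (8.38 to 24.8). This flank was singled out after its values were seen, and the difference was -0.674 points with the lists shortened to equal length.

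Other sequence elements were counted in the same window on both strands, with distal peaks that had neither an E-box nor an AP-1 motif as the reference. The variant E-box CATGTG occurred in a mean of 11.8% of distal E-box peaks and 23.05% of the reference peaks, lower in 4 of 4 libraries. The RUNX core TGTGGT occurred in 11.2% against 17.5%, and the TEAD core GGAATG in 8.54% against 13.4%, both lower in 4 of 4 libraries. The variant CATGCG was lower as well, with 2.16% against 3.53%. Each of these 4 had an exact sign-flip permutation p = 0.125, which was 0.312 after Benjamini-Hochberg adjustment over 10 elements. The CATGTG gap was widest in parental replicate 1, with 12.4% against 35.4%, and narrowest in TKO replicate 2, with 9.68% against 12.8%. In each library these 4 were still more frequent at the summits of distal E-box peaks than in their windows 1 kb away. For RUNX the values were 10.95%, 11.1%, 10.5% and 12.1% at summits and 7.14%, 9.02%, 7.27% and 7.79% away from them. E-box peaks within 3 kb of a TSS held CATGTG in 4.11%, 3.65%, 5.15% and 4.54% of cases. They held RUNX in 4.76%, 4.65%, 4.66% and 4.13% and TEAD in 5.09%, 5.65%, 5.65% and 5.62%. All of these were below the distal E-box peaks in 4 of 4 libraries. CATGCG went the other way, with 4.93%, 4.65%, 3.81% and 4.29% at the peaks near a TSS. The other elements, the ETS motif CCGGAAGT, CCAAT, the CRE TGACGTCA and CACGCG, had an exact sign-flip permutation p between 0.25 and 1. The GC box GGGCGG was present in 7.72% against 7.76%. AP-1 motifs beyond the window, between 51 and 250 bp from the summit, were present at 23.8% against 26.1% (exact sign-flip permutation p = 0.25). Some of the distal E-box peaks thus had an AP-1 motif nearby although none lay in the window itself.

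Most of the distal E-box peaks lay within genes. Summits were in introns in 58.1%, 58.2%, 57.2% and 58.2% of peaks and intergenic in 37.6%, 37.3%, 38.3% and 36.3%. Other distal peaks were intronic in 56.5%, 57.0%, 55.0% and 53.8%. The median distance to a TSS was 12977, 11889.5, 13523 and 13065 bp. Peaks close to the limit of the rule were of mixed strength. Just inside it were a peak of TKO replicate 2 at 3020 bp from SREBF1, at percentile 11.4, and a peak of parental replicate 1 at 3029 bp from GET4, at percentile 96.4. Just outside were peaks of TKO replicate 1 at 2992 bp from MAMSTR, at percentile 57.2, and of TKO replicate 2 at 2986 bp from CFL1P4, at percentile 57.6, and 2 more peaks of TKO replicate 1 at 2985 bp, at percentiles 79.6 and 93.4. E-box peaks without an AP-1 motif at 2 to 3 kb from a TSS had median percentiles of 82.4, 67.6, 66.8 and 71.3 in the 4 lists, and those at 3 to 4 kb had 63.1, 52.5, 56.7 and 63.2, lower in each list.

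A site counted as called in a library when any peak of that list was part of it, whether or not that peak fulfilled the rule. Of the 1002 distal E-box sites, 168 had a peak in all 4 libraries, 357 in both TKO libraries alone, 3 in both parental libraries alone, and 474 were called in other combinations. This balance depended on the length of the lists: with every list shortened to its 3720 peaks of highest fold, 67 distal E-box sites were called in all 4 libraries, 31 in both TKO libraries alone and 67 in both parental libraries alone, so the order of the last 2 classes was reversed. The sites in all 4 libraries were 16.8% of the distal E-box sites, while 5.15% of all distal sites were called so and 4.25% of the other distal sites. At 87 of the 168 distal E-box sites in all 4 libraries, every list held a peak that fulfilled the rule. The sites of both TKO libraries alone were 35.6%, beside 33.4% of all distal sites. Of the remaining combinations, 186 sites had a peak in TKO replicate 1 alone, 100 in TKO replicate 2 alone, 94 in parental replicate 2 and both TKO replicates, 30 in parental replicate 2 alone and 2 in parental replicate 1 alone.

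Of the 185 distal E-box sites called in both parental libraries, 168 were called in both TKO libraries, or 90.8% (85.7 to 94.6). The figure was 86.7% for all distal sites and 85.5% (82.5 to 88.1) for the other distal sites, so the intervals overlapped. The share was 42.4% with lists of equal length, 78.7% when parental replicate 1 was left out and 97.9% when TKO replicate 2 was left out. With a library left out, the remaining library of its genotype stood for both. These shares therefore rest on another criterion than the 90.8%. Of the 639 distal E-box sites called in both TKO libraries, 357 had no parental peak, or 55.9% (51.9 to 59.8). The figure was 73.5% for all distal sites and 75.5% (74.4 to 76.6) for the other distal sites, a difference of -19.6 percentage points (95% interval by the normal approximation -23.7 to -15.6), and sites are not replicates. For E-box sites near a TSS it was 47.6%, and for distal sites with an AP-1 motif alone 70.3%.

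The gap was smaller among sites of like strength. Within deciles of the percentile in the TKO lists the mean difference was -7.19 points, and with lists of equal length it was -5.69 points. The share without a parental peak was lower for distal E-box sites in 9 of the deciles, the exception being the decile numbered 7 with 77.6% against 75.4%. In the strongest decile it was 26.0% of 169 distal E-box sites (19.6 to 33.3) and 28.3% of 466 other distal sites (24.3 to 32.7).

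**Figure D4:**
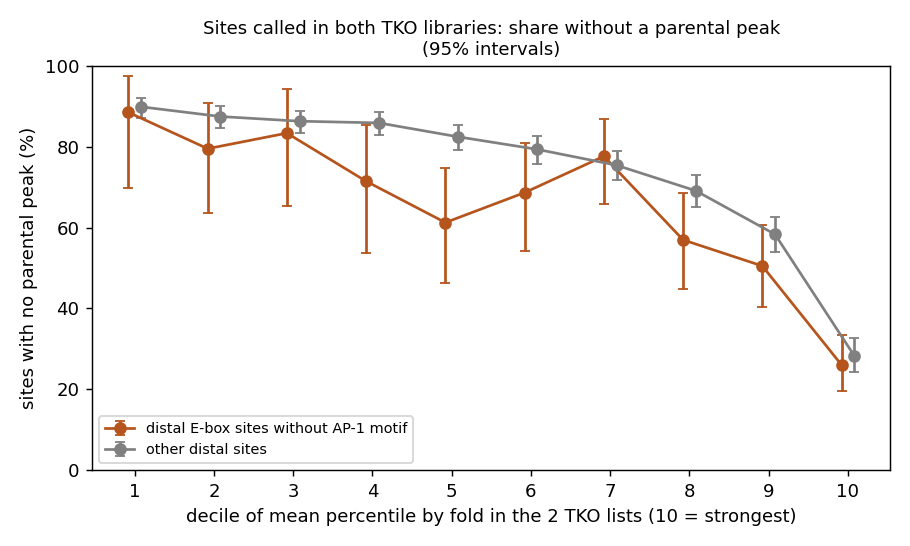
Sites called in both TKO libraries, by deciles of their mean percentile in the TKO lists (10 is the strongest), with the percent that had no parental peak for distal E-box sites without an AP-1 motif and for other distal sites. Bars are 95% Clopper-Pearson intervals; both curves fell toward the strong sites, to 26.0% and 28.3% in the strongest decile.

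Replicate lists overlapped unequally. Of the 210 distal E-box peaks of parental replicate 1, 189 overlapped a peak of parental replicate 2, 97.1% one of TKO replicate 1 and 86.7% one of TKO replicate 2. Of those of parental replicate 2, 55.4% overlapped a peak of parental replicate 1, and 88.6% and 77.5% one of the TKO replicates. Distal peaks with neither motif had 82.2%, 95.6% and 85.5% for parental replicate 1, in the same order. For parental replicate 2 they had 29.9%, 79.5% and 64.9%. Of the distal E-box peaks of TKO replicate 1, 23.6% and 33.9% overlapped a peak of parental replicates 1 and 2 and 74.6% one of TKO replicate 2. For distal peaks of TKO replicate 1 with neither motif these shares were 7.04%, 16.1% and 59.6%.

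Summit reads, the number of extended reads at the summit, could be solved from the fold and p of every peak. At the 168 sites of all 4 libraries the median was 35 reads in parental replicate 1 (14 to 75), 35 in parental replicate 2 (15 to 91), 64 in TKO replicate 1 (18 to 165) and 45 in TKO replicate 2 (14 to 140). The ranges of the 4 libraries overlapped. The median ratio was 1.76 for TKO replicate 1 against parental replicate 1, 1.75 against parental replicate 2, and 1.28 and 1.22 for TKO replicate 2 against the same libraries. At the 553 other distal sites of all 4 libraries the ratios were 1.62, 1.64, 1.18 and 1.18. The distal E-box sites were thus 1.08, 1.07, 1.08 and 1.04 times the other distal sites, a mean of 1.07 over pairs that share libraries. At the 429 E-box sites near a TSS the ratios were 1.78, 2.11, 1.32 and 1.54, above those of the distal E-box sites in all 4 pairs. The reads were higher in the TKO library in all 4 pairs at 106 of the 168 sites, or 63.1%, beside 59.9% of all distal sites called in every library. These ratios were not scaled for depth or fragment length, which differed between the libraries as given above, and their part in the ratios was not tested.

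**Figure D5:**
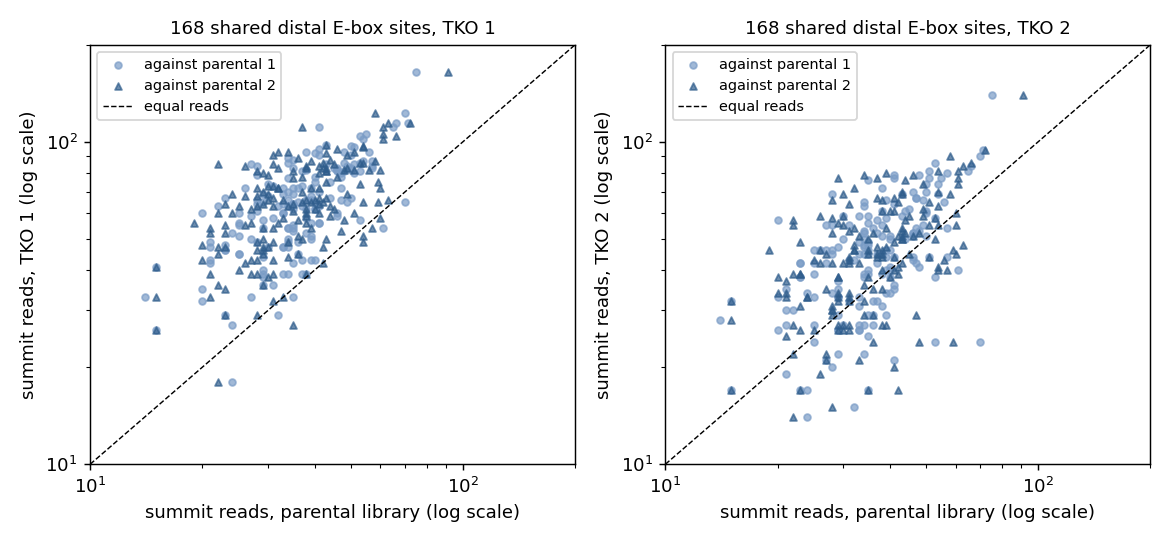
Summit reads of each TKO library (vertical, log scale) against those of each parental library (horizontal, log scale) at the 168 distal E-box sites called in all 4 libraries, by any peak of a list. Each point is a site and the dashed line marks equal reads. Most points of TKO replicate 1 lie above the line, with median ratios of 1.76 and 1.75, and those of TKO replicate 2 lie nearer to it, with 1.28 and 1.22.

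Summits of the distal E-box sites in all 4 libraries fell close together. The median distance between the summits of a pair of libraries was 25 bp for the parental replicates and 24.5 bp for the TKO replicates, against 31 and 32 bp for other distal sites. Distal sites with an AP-1 motif alone had 28 and 30 bp. Between a parental and a TKO library the medians were 20.5 to 30 bp for distal E-box sites. They were 23 to 33 bp with an AP-1 motif alone and 31 to 38 bp for other distal sites. The E-box centre was a median of 17.5 bp from the summit at sites of all 4 libraries, 19.5 bp at sites of both TKO libraries alone and 22 bp at sites called in other combinations. It was within 20 bp at 58.9% (51.1 to 66.4), 52.4% (47.1 to 57.7) and 46.2% (41.6 to 50.8) of these sites.

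Among the sites with a peak in all 4 libraries, the strongest was in an intron of LPIN1, a phosphatidate phosphatase of triglyceride synthesis, at chr2:11919208-11919741. Its percentile was 96.2, 99.4, 98.2 and 99.01 in the 4 lists, from 54, 58, 87 and 69 summit reads, so it ranked near the top of each list. Percentiles are ranks within lists of different length and are not compared between libraries. The site nearest to SYT5, in an intron of PTPRH at chr19:55700481-55701261, had percentiles of 96.6, 95.9, 98.6 and 99.05. A site on chr12:14412921-14413852, 105022 bp from ATF7IP, had 95.6, 95.8, 98.9 and 99.1. The ARHGAP39 site, in an intron of this gene, stood at 99.1, 99.9, 98.3 and 88.0. Its fold was 15.8, 21.7, 17.8 and 9.38. The sites nearest to FOXN3, a forkhead factor, and MERTK, a receptor tyrosine kinase, had percentiles from 90.5 to 99.1 and from 90.9 to 98.4.

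The strongest site of both TKO libraries alone lay in an exon of the antisense RNA SLC12A9-AS1, 9980 bp from EPHB4, an ephrin receptor. It had percentiles of 96.4 and 96.4 and 51 and 39 summit reads. The PLEC site, in coding sequence of this cytoskeletal linker gene, had 95.2 and 94.2. The intergenic EGFL7 site had 91.2 and 98.1, the METRNL site 96.9 and 92.1, and the GNG7 site 94.4 and 94.4. The MICALL2 site, in coding sequence of INTS1, had 97.9 and 90.8. No peak was called at these sites in the parental lists, which says only that a site did not pass the caller's threshold there. The sites of both parental libraries alone had percentiles of 64.8 and 95.1 at the TBX19 site, 74.96 and 77.4 at the ILRUN site, and 40.6 and 87.9 at a site whose nearest protein-coding gene was ACVR2A at 1192006 bp. Over whole classes, the median percentile was 64.8 and 87.9 in the parental lists for these 3 sites, and 65.4 and 55.5 in the TKO lists for the 357 sites of both TKO libraries alone.

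By nearest protein-coding TSS the distal E-box sites belonged to 880 of 20136 genes, or 4.37%. Of these, 780 had 1 site. DNAJB6, a co-chaperone, had 7 sites over chr7:157066208-157695325, of which 2 were called in all 4 libraries and 2 in both TKO libraries alone. This gene was named after its number was seen. Of 15 genes of the MYC network, 2 had a site. The MYC site lay in an intron of the noncoding PVT1 gene, 339419 bp from the MYC TSS, at chr8:129089011-129089684. It was called in every library, with percentiles of 78.6, 67.3, 92.6 and 78.7. The MLXIPL site, by the gene of ChREBP, was called in both TKO libraries alone at 80.0 and 94.2. Of 40 lysosome genes, 0 had a site.

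Of 18 genes of AP-1 factors, 3 had a site, and all 3 sites were called in every library. The FOSB site, in an intron of ERCC1, had percentiles of 80.0, 76.1, 97.8 and 98.5 and folds of 7.37, 6.50, 16.4 and 17.6. Its TKO folds lay above both parental folds. The same order held for the median folds of all distal E-box sites called in every library, at 5.71, 6.48, 10.0 and 9.21. The FOSL2 site had percentiles of 86.9, 88.0, 84.6 and 89.5, and the JUN site 85.1, 87.6, 81.7 and 85.0. The folds at JUN were 8.07, 7.63, 8.05 and 8.77, so the groups overlapped. Of 31 genes of TGF-beta signalling, 5 had a site. The site in an intron of SMAD3, a receptor-activated transcription factor, was called in every library at 85.9, 82.8, 85.3 and 81.9. Of 37 genes of basal and mesenchymal breast cancer, 5 had a site. The SNAI1 site lay 44875 bp from the TSS of this repressor of E-cadherin. It was at percentile 0.0806 in parental replicate 1, had no peak in parental replicate 2, and was at 90.04 and 91.1 in the TKO lists. Its summit reads were 40 in parental replicate 1 and 74 and 48 in the TKO replicates. The LAMB3 site was called in both TKO libraries alone at 43.0 and 60.8, and the EGFR site in TKO replicate 1 alone at 39.4.

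Of 24 genes of glycolysis and glucose uptake, 3 had a site. The HK1 site, in an intron of this hexokinase gene, was called in parental replicate 2 at 61.3 and in the TKO lists at 69.4 and 29.0. The sites of HK2, another hexokinase, and SLC16A3, a lactate exporter, were called in both TKO libraries alone, at 39.3 and 6.34 and at 44.1 and 37.6. Of 21 annotated genes of the circadian clock, 3 had a site. The BHLHE41 site, by a repressor of this class, was called in both TKO libraries alone at 66.5 and 85.0, and the CRY2 site at 14.5 and 20.6. With so few genes in a list, these counts are a description beside the 4.37% of all genes.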

How the data were processed

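Myc ChIP-seq peak lists of 4 libraries were used. Per the labels and the study's methods, the authors aligned single reads to hg19 with Novoalign 3.08.02 and called peaks in each library against input with MACS2 2.1.1.20160309; the handling of duplicate reads is not given in the sources used here. The deposited fold (a ratio of summit to local background), -log10 p and -log10 q were used as given, with the lowest -log10 q at 2.03 to 2.07 in every list. The deposited score repeats the q-value and was not used. Summit reads were solved from the deposited fold and p, whole within 0.002 for 100% of peaks. Depth was estimated from background with the narrowest peak width as fragment length and an assumed genome of 2700000000 bases. Distances used basic transcripts of GENCODE v44 lifted to GRCh37, and 11 mitochondrial peaks were left out.

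Sites were peaks overlapping by 1 bp, ranked by percentile of fold within a list. Named sites were the 6 strongest in all 4 libraries, the 6 strongest in both TKO libraries alone, all sites of both parental libraries alone, and up to 3 per gene list, and windows on chromosome 8 were not printed. Libraries were compared with exact permutation tests, and shares given with 95% Clopper-Pearson intervals, in Python 3.11.15 with scipy 1.17.1, pandas 2.3.3 and pysam 0.24.0. Scripts were tested on simulated data. The study calls the replicates biological and does not say how the cultures were separated, so the p-values apply to these samples only. A p-value at the smallest the test allows reflects the order or direction of the libraries and not the size of their spread. The members, lists and tests were chosen with earlier results of these data known.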

Additional observations from a re-analysis of the deposited data

How the results depend on the processing

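Of the planned recomputations, 85 stayed within the spread between libraries or the counting interval, 15 moved and 4 reversed. For the peak number ratio a fixed factor took the place of a spread. With lists of equal length, the ratio of distal E-box peak numbers was 0.80, the difference in share of distal peaks 4.75 points, the percentile difference 14.03, the share of parental sites found in both TKO libraries 42.4%, the difference in sites without a parental peak -5.69 points, the relative read ratio 1.04 and the difference in E-boxes within 20 bp 0.956 points. The CCACGTGC difference, added after seeing the data, was then -0.674 points. The E-box position difference was 3.03 points beyond 10 kb, -3.32 with protein-coding TSS, -3.43 with windows of 100 bp and -2.85 at a -log10 q of at least 5. At a fold of at least 5 the share found was 83.0% and the read ratio 1.10. The difference in sites without a parental peak was -15.3 points with windows of 100 bp and -7.19 within strength deciles. The cause was not tested, other than that equal lists hold fewer peaks.

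Leaving out 1 library at a time gave 78.7% to 97.9% for the share found, where the remaining library of that genotype stood for both. The relative read ratio was then 1.04 to 1.14, the peak number ratio 2.45 to 3.69 and the difference in share of distal peaks -13.4 to -5.28 points. With a replicate block the peak number ratio was 3.16, the share difference -9.34 and the E-box position difference -2.30 points. The correlation between the replicate differences in summit reads of the parental and the TKO libraries was 0.0105 over 2631 sites. Reads were centred on the median of each library, which removes a shift common to a whole library. Whether same-numbered libraries were processed together was therefore not settled. The comparison of soft-masked sequence was not run, since the reference carried no masking. With 2 libraries a group no permutation test could pass 0.05, and a missing peak means only a site under the caller's threshold at that depth.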
